A study of Mus musculus with 10 samples.

Results

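The genes described here are 32 genes of the unfolded protein response and the integrated stress response, given by symbol and found in the table of normalized counts through their Ensembl IDs. All 32 were among the 16154 genes of the table, and all 32 were among the 12946 genes that passed the filter on low values (1 per M or more in 5 or more libraries). The libraries are polyA RNA-seq of alveolar type II (AT2) cells, the surfactant-making cells of the lung alveolus, sorted from C57BL/6 mice aged 8 to 10 weeks. Wild-type mice gave 5 libraries (wild type 2 to 6), and mice without HOIL-1L gave 5 (knockout 1 to 5). HOIL-1L, the product of Rbck1, is a subunit of the complex that builds linear ubiquitin chains. The sample labels give the genotype as HOIL-1L -/-, whereas the series' design text gives CreSPC/HOIL-1Lfl/fl, a deletion driven by Cre under the surfactant protein C promoter. Every title also carries a letter N that the labels do not explain. Each library is 1 numbered mouse, and no litter, sort day or sequencing date is given.

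Proteins that enter the endoplasmic reticulum (ER) are folded there by chaperones and disulphide isomerases, and those that fail are sent back to the cytosol for degradation. When unfolded protein builds up, the sensors IRE1, PERK and ATF6 raise the transcription of these folding and degradation genes through the factors XBP1, ATF4 and ATF6. PERK is also an eIF2 kinase: phosphorylation of eIF2 lowers general translation while favouring that of ATF4, and this shared output of several kinases is called the integrated stress response. AT2 cells secrete surfactant proteins through the ER, and misfolded surfactant protein C is a known trigger of the response in these cells.

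Values are normalized counts per M, that is the deposited value over the average column sum in M, and column sums lay between 6.94 and 7.43 M. The depth behind them was estimated at roughly 7.69 M reads in the shallowest library (wild type 5) and 13.2 M in the deepest (wild type 6). Rbck1 stood at 29.7, 56.7, 57.8, 56.1 and 56.6 per M in wild type 2 to 6 and at 59.3, 29.8, 36.4, 38.0 and 38.8 in knockout 1 to 5. The libraries labelled wild type 2 and knockout 1 therefore go against their labels, and over all 10 libraries the difference was -0.34 on the log2 scale (exact permutation test, two-sided, p = 0.206; the smallest p the 252 arrangements allow is 0.00794). The genotypes were compared in all 10 libraries as labelled and in the 8 libraries without these 2. For some genes and lists the values of a single set are given. The numbers of the mice in the titles form a pair of runs (wild type 2 and 3 with knockout 1 to 3, and wild type 4 to 6 with knockout 4 and 5), called the earlier and the later numbers below. The labels do not call them batches. By Xist, wild type 2, knockout 2 and knockout 3 came from females, so that all 3 female libraries carry earlier numbers. The 8 libraries therefore hold females in the knockout group only (knockout 2 and 3). Of their wild-type libraries only wild type 3 carries an earlier number, so sex and run are not balanced between the genotypes there. The AT2 markers were high throughout, with Sftpc, the surfactant protein C gene, between 110469 and 147854 per M. In these bulk libraries, fewer cells of a type and less RNA per cell cannot be told apart.

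Levels between genes were compared per kb of exon, scaled to 1 M over all genes. The folding genes were the most abundant. Pdia3, which reshuffles disulphide bonds in glycoproteins held by calnexin and calreticulin, had the highest level, 355 ± 32.3 in wild-type and 360.2 ± 18.1 in knockout libraries (SD, n = 5 each). Calr, the lectin chaperone calreticulin, followed at 343 ± 55.02 and 346 ± 20.3, and Hspa5, the ER chaperone BiP, at 312 ± 53.4 and 325 ± 17.4. Herpud1, a membrane protein of ER-associated degradation, stood among the chaperones at 266 ± 44.6 and 343 ± 59.0. Hsp90b1 (the ER chaperone GRP94) was at 302 ± 26.8 and 299.8 ± 14.6. In wild type, neighbours among these 5 genes differed by less than the larger of their SDs, and each stood above 98.4% of the genes in the table.

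**Figure D1:**
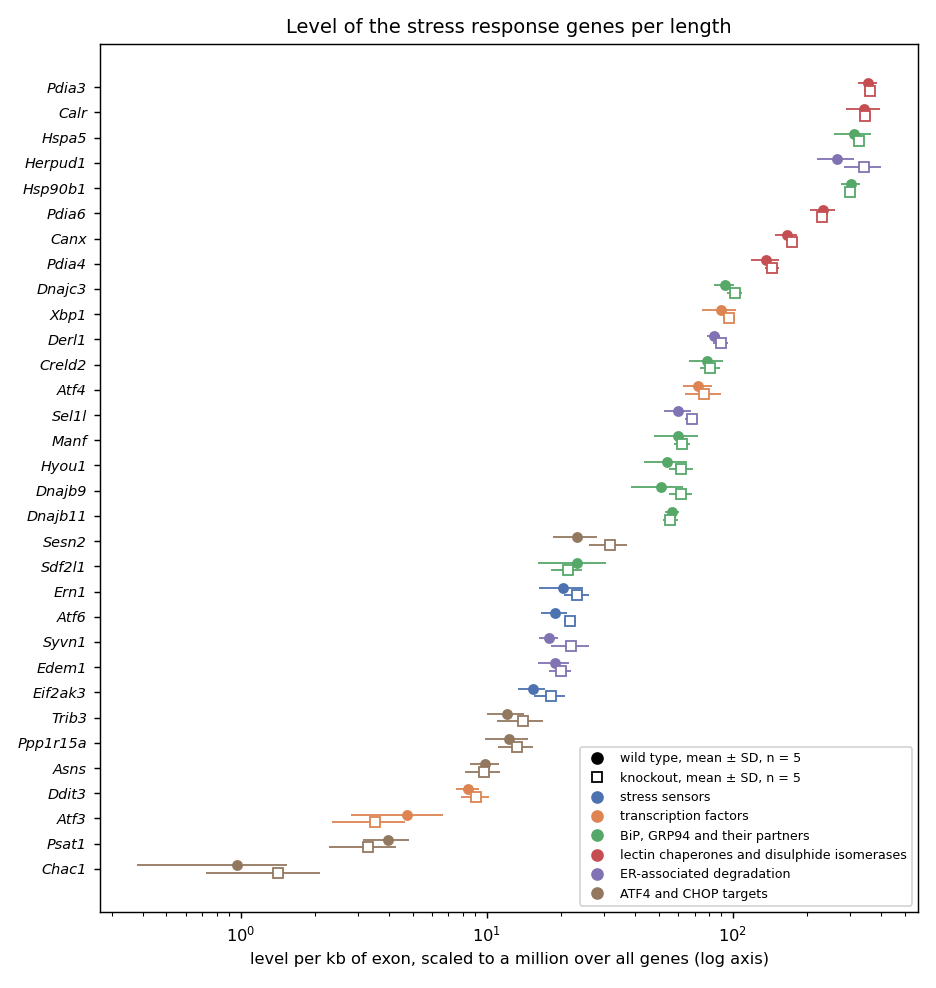
Level of each of the 32 genes per kb of exon (log axis, scaled to 1 M over all genes), as the mean ± SD of 5 wild-type libraries (filled circles) and 5 knockout libraries (open squares), coloured by role. The genes run from Chac1 at a mean of 1.19 to Pdia3 at 358, with the folding genes at the top and most ATF4 and CHOP targets at the bottom.

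Below them the order ran through Pdia6 (mean of 10 libraries 233), Canx (170.0), Pdia4 (141), Dnajc3 (97.4), Xbp1 (93.1), Derl1 (86.7), Creld2 (80.0), Atf4 (74.6), Sel1l (64.3), Manf (61.1), Hyou1 (58.1), Dnajb9 (56.4) and Dnajb11 (56.3), all per length. The 3 sensors were lower and close to each other, Ern1 (IRE1) at 21.9, Atf6 at 20.4 and Eif2ak3 (PERK) at 16.8. Sesn2 was at 27.5, Sdf2l1 at 22.4, Syvn1 at 20.01 and Edem1 at 19.5, and the ATF4 targets Trib3, Ppp1r15a and Asns at 13.1, 12.8 and 9.82. The lowest levels were those of Ddit3 (CHOP, a pro-apoptotic transcription factor) at 8.74, Atf3 at 4.12, Psat1 at 3.64 and Chac1 at 1.19. Chac1, which degrades glutathione, was between 0.256 and 1.49 normalized counts per M in the 10 libraries, so its values rest on a few reads and its highest library was 5.84 times its lowest. Among the abundant genes the spread was far smaller. For Canx, the membrane-bound lectin chaperone calnexin, the highest library was 1.23 times the lowest, and for Derl1, part of the channel through which proteins leave the ER, 1.16 times.

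Knockout was compared with wild type by limma-trend on log2(value per M + 0.5), with Benjamini-Hochberg adjustment over all 12946 genes and a threshold of 0.05. None of the 32 genes passed, in the 10 libraries or in the 8. In the 10 libraries no gene of the table passed either (0%), while 1227 genes (9.48%) had an unadjusted p under 0.05, 803 of them higher in knockout (6.2%) and 424 lower (3.28%). Of the 32 genes, 3 had such a p and were higher (Herpud1, Syvn1 and Sesn2) and 0 were lower. In the 8 libraries 52 genes of the table passed (0.402%), none of them a member. There 5 members were higher at an unadjusted p under 0.05 (Eif2ak3, Herpud1, Syvn1, Trib3 and Sesn2), beside 7.84% of all genes, and 2 were lower (Atf3 and Psat1), beside 5.25%. The median log2 fold change of the members was 0.02 in 10 libraries and 0.04 in 8, against 0.01 and 0.00 for all genes. In the 10 libraries 22 members lay above 0, beside 51.3% of all genes, but 18 did with TMM scaling and 19 with median-ratio scaling. In the 8 libraries 22 members lay above 0, beside 50.1%.

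**Figure D2:**
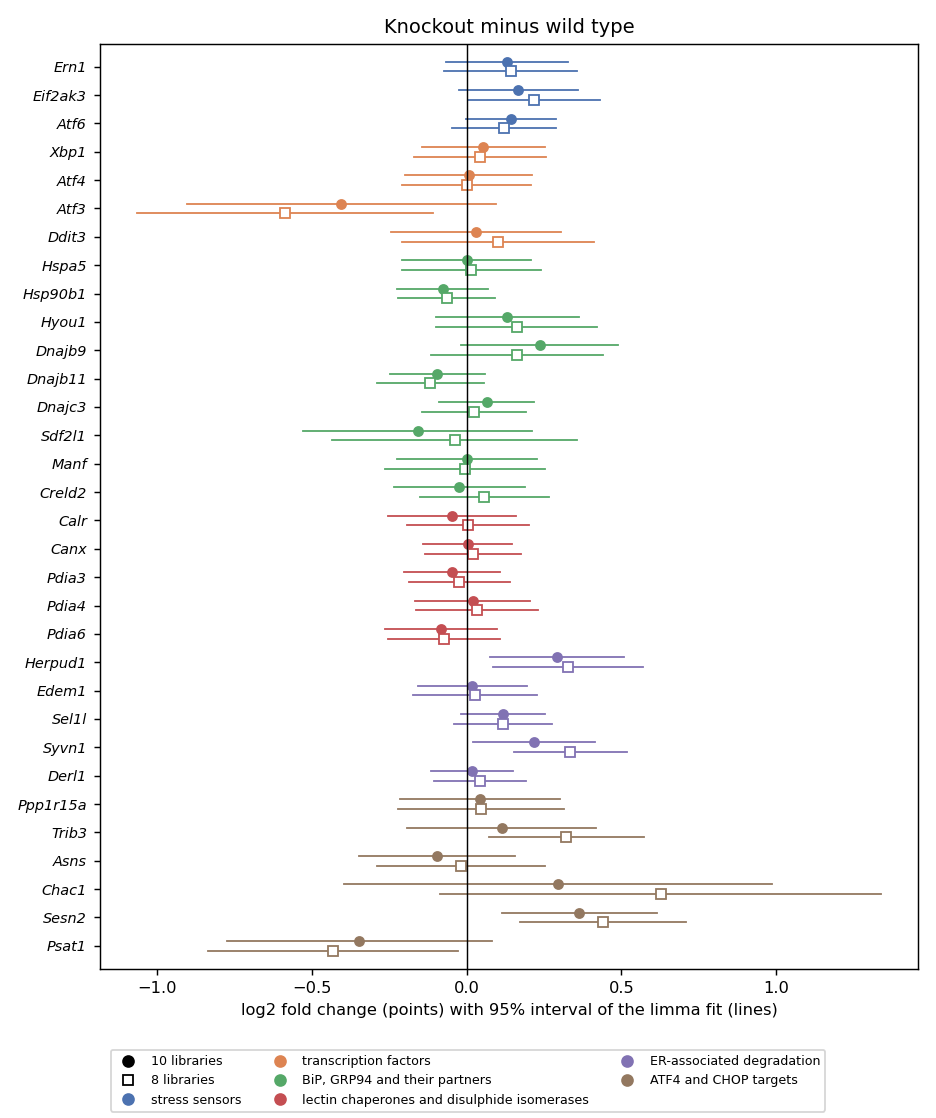
Log2 fold change of each gene, knockout minus wild type, with the 95% interval of the limma fit, for 10 libraries as labelled (filled circles) and for 8 libraries without wild type 2 and knockout 1 (open squares), coloured by role. In 10 libraries the 5 lectin chaperones and isomerases lie between -0.08 and 0.02 and the 9 genes of BiP, GRP94 and their partners between -0.16 and 0.24. Herpud1, Syvn1 and Sesn2 have intervals above 0 in both sets.

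The sensors lay above 0 in both sets of libraries and under each scaling tried. Eif2ak3, the ER-resident eIF2 kinase, stood at 42.8, 44.7, 35.0, 41.8 and 43.3 per M in wild type 2 to 6 and at 41.8, 40.6, 50.9, 50.9 and 49.6 in knockout 1 to 5. Knockout 3, 4 and 5 were above every wild-type library, and the other 2 knockout libraries were within the wild-type range. The log2 fold change was 0.17 ± 0.09 (SE) in 10 libraries (adjusted p = 0.584) and 0.22 ± 0.10 in 8 (unadjusted p = 0.0453, adjusted p = 0.370). Atf6, which is cut in the Golgi to release a transcription factor, stood at 74.4, 83.6, 74.3, 72.04 and 87.4 in wild type and at 87.2, 84.5, 88.1, 83.3 and 88.4 in knockout. The knockout libraries were tightly grouped at the top of the wild-type range, with a log2 fold change of 0.14 ± 0.07 (adjusted p = 0.533) in 10 libraries and 0.12 ± 0.08 (adjusted p = 0.530) in 8. Ern1, the kinase and RNase that splices Xbp1, stood at 69.2, 70.5, 61.0, 83.6 and 88.3 in wild type and at 73.4, 77.6, 82.2, 85.5 and 86.6 in knockout, and the groups overlapped across most of their range. Its log2 fold change was 0.13 ± 0.09 in 10 libraries (adjusted p = 0.668) and 0.14 ± 0.10 in 8.

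Of the transcription factors, Xbp1 and Atf4 showed no genotype difference beyond the spread. Xbp1, whose spliced form drives folding and degradation genes, stood at 141, 161, 109, 114 and 128 per M in wild type and at 151, 127, 125, 134 and 136 in knockout, and its log2 fold change was 0.05 ± 0.09 (adjusted p = 0.874) in 10 libraries. The counts are per gene, so spliced and unspliced Xbp1 RNA were not told apart. Atf4 stood at 66.4, 68.3, 84.3, 81.9 and 81.8 in wild type and at 68.0, 64.7, 82.6, 87.8 and 82.3 in knockout, with low and high libraries in both groups. Ddit3 was steady at 7.63, 6.72, 6.01, 6.17 and 5.85 in wild type and 6.32, 5.74, 7.18, 6.58 and 7.26 in knockout, with a log2 fold change of 0.03 ± 0.13 in 10 libraries (95% interval -0.24 to 0.30). Atf3, an early-induced factor downstream of ATF4, stood at 2.37, 4.47, 4.90, 3.94 and 7.03 in wild type and at 3.09, 3.34, 2.50, 2.42 and 4.76 in knockout. Without wild type 2, which was the lowest of all 10, its log2 fold change of -0.40 ± 0.24 became -0.59 ± 0.23 in the 8 libraries (unadjusted p = 0.0193, adjusted p = 0.292), and the groups still overlapped.

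No gene among BiP, GRP94 and their partners passed between the genotypes, and the 9 values ran from -0.16 (Sdf2l1) to 0.24 (Dnajb9) in 10 libraries. Hspa5 stood at 654, 742, 484, 523 and 564 per M in wild type and at 626, 599.5, 612, 529 and 572 in knockout, so that the knockout libraries all lay inside the wild-type range. Its log2 fold change was 0.00 ± 0.10 in 10 libraries (95% interval -0.21 to 0.21, adjusted p = 0.999) and 0.02 ± 0.11 in 8 (95% interval -0.21 to 0.24, adjusted p = 0.966). The sign of so small a value turned with the scaling (-0.01 with TMM factors in 10 libraries). Dnajb9, a J-domain partner of BiP and a known target of XBP1, stood at 50.01, 67.5, 41.1, 64.2 and 66.8 in wild type and at 72.4, 63.7, 61.6, 63.0 and 75.7 in knockout. Knockout 1 and 5 were above all wild-type libraries, and the log2 fold change was 0.24 ± 0.12 in 10 libraries (adjusted p = 0.569) and 0.16 ± 0.13 in 8 (adjusted p = 0.622). Dnajb11, another J-domain partner, stood at 84.0, 92.1, 80.5, 79.5 and 76.5 in wild type and at 84.0, 78.2, 74.5, 69.4 and 80.6 in knockout, with a log2 fold change of -0.09 ± 0.07 in 10 libraries and -0.12 ± 0.08 in 8 (adjusted p = 0.696 and 0.550). For Hyou1, the nucleotide exchange factor of BiP, the values were 0.13 ± 0.11 and 0.16 ± 0.12 (adjusted p = 0.722 and 0.591).

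The 5 lectin chaperones and disulphide isomerases all lay close to 0. Their log2 fold changes ran from -0.08 to 0.02 in 10 libraries and from -0.07 to 0.03 in 8. For Pdia3 the value was -0.05 ± 0.07 in 10 libraries (adjusted p = 0.859), for Pdia4 0.02 ± 0.09 (adjusted p = 0.959) and for Pdia6 -0.08 ± 0.09 (adjusted p = 0.787). The 95% interval of Pdia3 in the 8 libraries was -0.19 to 0.14 on the log2 scale, and -0.21 to 0.08 with the run as a covariate. It was -0.35 to 0.02 in the earlier mice alone and -0.20 to 0.19 in the later.

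The ER-associated degradation genes lay above 0 in knockout, all 5 of 5, in both sets of libraries and under each scaling. The median log2 fold change of the 5 was 0.12 in both sets. In the earlier mice alone 3 of the 5 lay above 0, and with the run as a covariate 4 of 5 did in the 10 libraries. Of 20 further degradation genes 11 lay above 0 in 10 libraries and 9 in 8, with medians of 0.00 and -0.01. Herpud1 stood at 280.4, 251, 259, 263 and 333 per M in wild type and at 311, 322, 389.5, 408 and 277 in knockout. Knockout 3 and 4 were above every wild-type library, and knockout 5 was within the wild-type range, as were knockout 1 and 2. The log2 fold change was 0.29 ± 0.10 in 10 libraries (unadjusted p = 0.0111, adjusted p = 0.384) and 0.33 ± 0.11 in 8 (unadjusted p = 0.0108, adjusted p = 0.238). Syvn1, the ubiquitin ligase HRD1 that marks misfolded proteins at the ER membrane, stood at 45.0, 37.5, 38.9, 36.4 and 37.5 in wild type and at 37.7, 45.4, 44.0, 47.6 and 53.8 in knockout. The high wild-type value is wild type 2 and the low knockout value is knockout 1, the pair of libraries whose Rbck1 goes against the label. Without them the groups did not overlap (36.4 to 38.9 against 44.0 to 53.8), as was so for 3.85% of all genes in this direction. The log2 fold change of Syvn1 was 0.22 ± 0.09 in 10 libraries (unadjusted p = 0.0321, adjusted p = 0.501) and 0.34 ± 0.09 in 8 (unadjusted p = 0.00122, adjusted p = 0.111). Sel1l, the partner that holds HRD1 in its complex, lay between 200.2 and 245 in wild type and between 239 and 255 in knockout. Edem1, which passes glycoproteins on to degradation, and Derl1 overlapped across nearly their whole range (45.4 to 58.8 against 50.8 to 61.2, and 119 to 135 against 117 to 133).

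The ATF4 and CHOP targets went in different directions. Sesn2, a stress-induced inhibitor of mTORC1 signalling, stood at 37.1, 29.1, 35.0, 35.0 and 45.2 per M in wild type and at 38.8, 49.7, 51.4, 55.1 and 39.2 in knockout, where knockout 2, 3 and 4 were above every wild-type library. Its log2 fold change was 0.36 ± 0.12 in 10 libraries (unadjusted p = 0.00705, adjusted p = 0.359) and 0.44 ± 0.13 in 8 (unadjusted p = 0.00306, adjusted p = 0.163). Trib3, a pseudokinase induced by ATF4 and CHOP, stood at 14.8, 11.9, 10.5, 9.46 and 11.3 in wild type and at 8.76, 13.4, 14.2, 12.9 and 13.9 in knockout. The highest of all 10 was wild type 2 and the lowest knockout 1. Without them the groups did not overlap (9.46 to 11.9 against 12.9 to 14.2), and the log2 fold change went from 0.11 ± 0.14 to 0.32 ± 0.12 (adjusted p = 0.828 and 0.264). Syvn1 and Trib3 were the only 2 of the 32 members higher in knockout without overlap in the 8 libraries, beside 3.85% of all genes. Psat1, an enzyme of serine synthesis, stood at 9.29, 7.14, 6.37, 9.06 and 6.13 in wild type and at 9.28, 6.93, 5.74, 4.65 and 3.71 in knockout. Knockout 3, 4 and 5 were below every wild-type library, with a log2 fold change of -0.35 ± 0.20 in 10 libraries and -0.43 ± 0.19 in 8 (unadjusted p = 0.0375, adjusted p = 0.347). Asns, which makes asparagine, and Ppp1r15a, the phosphatase subunit GADD34 that reverses eIF2 phosphorylation, overlapped between the groups (10.6 to 14.2 against 9.28 to 13.3, and 13.7 to 19.6 against 14.1 to 19.4).

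**Figure D3:**
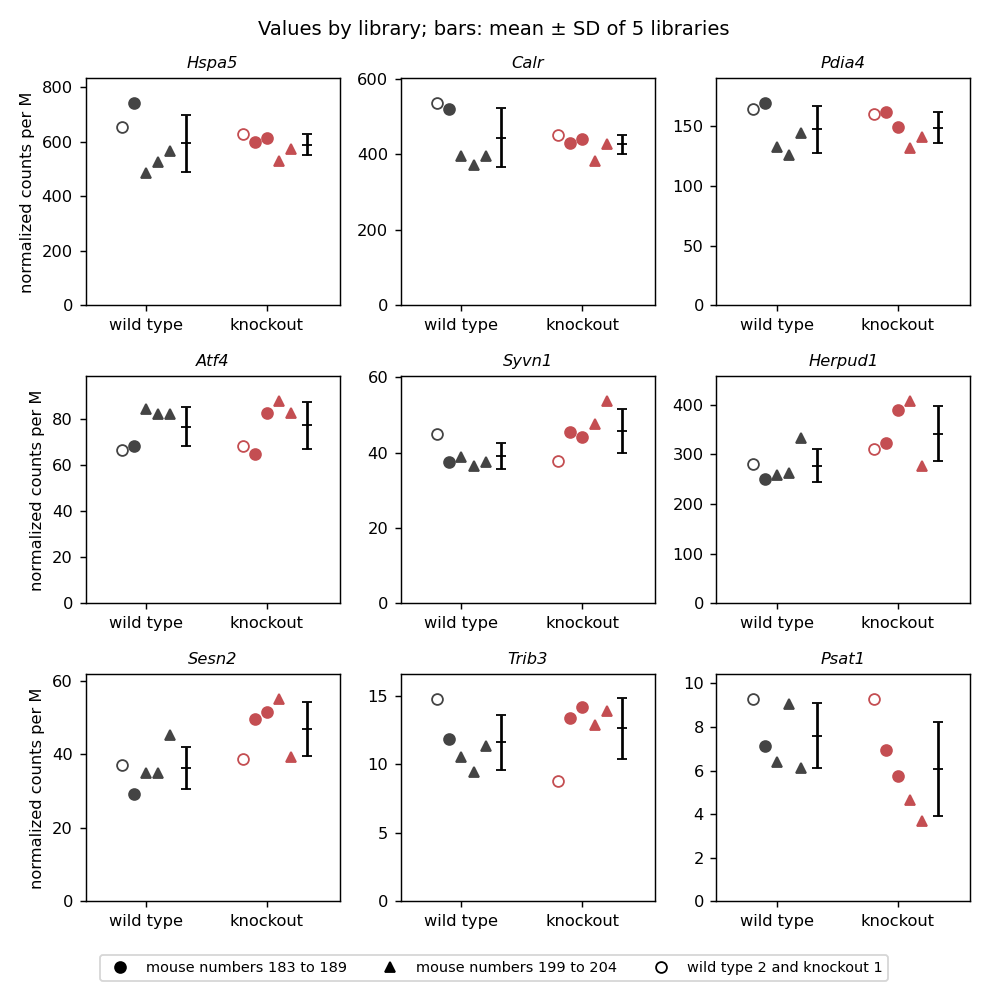
Normalized counts per M in each library for 9 of the genes, by genotype, with the mean ± SD of 5 libraries as bars. Circles are mice with earlier numbers, triangles mice with later numbers, and open circles wild type 2 and knockout 1. Hspa5, Calr and Pdia4 separate circles from triangles in both genotypes, and Syvn1 and Trib3 separate the genotypes once the open circles are left out.

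The genotype difference was also read within each run of mouse numbers. Among the earlier numbers (2 wild-type and 3 knockout libraries, wild type 2 and knockout 1 included) the members had a median log2 fold change of -0.10, and among the later numbers (3 and 2 libraries) of 0.07. Of the 7 club and goblet cell markers, 5 were higher in knockout at an unadjusted p under 0.05 among the earlier numbers (median 0.65) and 6 were lower among the later (median -0.55), and the part of these markers in the members' values was not tested. Herpud1 was 0.35 ± 0.11 and 0.25 ± 0.14 in the 2 runs, and Sesn2 0.49 ± 0.15 and 0.28 ± 0.15, each above 0 in both. Syvn1 was 0.04 ± 0.12 among the earlier and 0.42 ± 0.12 among the later numbers (adjusted p = 0.949 and 0.238). Its earlier value includes wild type 2 at 45.0 per M and knockout 1 at 37.7, whose Rbck1 goes against their labels. The remaining earlier libraries were wild type 3 at 37.5 and knockout 2 and 3 at 45.4 and 44.0. Calr was -0.26 ± 0.08 among the earlier and 0.06 ± 0.10 among the later. The interaction of genotype and run was tested over all genes in the 10 libraries as labelled, and 2 genes passed (0.0154%), neither a member. The smallest adjusted p of a member was that of Calr, 0.753, with an interaction of 0.32 ± 0.12.

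The clearest pattern among the 32 genes was between the earlier and the later mouse numbers, where 13 of the 14 folding genes lay below 0 (later minus earlier) and Dnajb9 was at 0.01. This difference was fitted with genotype as a covariate, later minus earlier. Of all genes tested, 81 passed (0.626%), 41 higher and 40 lower (64 of 97 higher when the columns were brought to equal totals). No member passed. At an unadjusted p under 0.05, 12 members were lower, beside 7.55% of all genes, and 1 was higher (Atf4), beside 8.22%. The median log2 fold change was -0.10 over the members and 0.00 over all genes, and 22 of 32 members lay below 0 (19 with equal totals), where 49% of all genes lay above 0. The 5 lectin chaperones and isomerases were all among the 12, as were 6 of the 9 genes of BiP, GRP94 and their partners, and Psat1. Of the degradation genes and sensors, 0 of 8 had such a p. With equal totals, whose all-gene median was 0.04, 4 of the 5 and 3 of the 9 had an unadjusted p under 0.05. The share of all genes at such a p with equal totals is not given here, and the 7.55% belongs to the fit without that scaling.

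Hspa5 lay between 599.5 and 742 per M in the 5 earlier libraries and between 484 and 572 in the 5 later, without overlap. The mean was 647 ± 57.0 against 535 ± 35.3, and the log2 fold change -0.28 ± 0.07 (unadjusted p = 0.00109, adjusted p = 0.0781). Calr stood at 537 and 521 in wild type 2 and 3 and at 452, 430.1 and 439 in knockout 1 to 3, against 397, 373 and 396 in wild type 4 to 6 and 382 and 427 in knockout 4 and 5. Every earlier library was above every later one, and the log2 fold change was -0.28 ± 0.07 (adjusted p = 0.0718). Pdia4, an isomerase with several thioredoxin-like domains, stood at 165, 169.7, 160.4, 162 and 149.6 in the earlier libraries (wild type 2 and 3, knockout 1 to 3) and at 132, 126, 145, 132 and 141 in the later (wild type 4 to 6, knockout 4 and 5), again without overlap (log2 fold change -0.26 ± 0.06, adjusted p = 0.0634). Pdia3 and Canx did not overlap either (478 to 559 against 451 to 477, and 351 to 385 against 312 to 348), with log2 fold changes of -0.18 ± 0.06 and -0.15 ± 0.06 (adjusted p = 0.167 and 0.242). In all 5 members were free of overlap in this direction, as were 1.4% of all genes.

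Pdia6 differed by -0.25 ± 0.06 (adjusted p = 0.0645), with 1 library out of order: knockout 3 at 365 was below wild type 4 at 367. Sdf2l1, a partner of the BiP cycle, had a log2 fold change of -0.46 ± 0.14 (adjusted p = 0.131), carried in part by wild type 2 and 3 at 14.7 and 16.8 per M against 7.88 to 12.0 in the other 8 libraries. Manf, a secreted ER protein that binds BiP, differed by -0.26 ± 0.09, Hyou1 by -0.25 ± 0.09, Creld2 by -0.20 ± 0.09 and Hsp90b1 by -0.15 ± 0.06 (adjusted p = 0.164, 0.212, 0.295 and 0.251). Summed over the 14 folding genes, the value was 3621 to 4246 per M in the earlier and 3258 to 3551 in the later libraries. Atf4 went the other way. It stood at 66.4, 68.3, 68.0, 64.7 and 82.6 in the earlier libraries and at 81.8 to 87.8 in the later, with knockout 3 the earlier library that reached the later range (log2 fold change 0.27 ± 0.07, unadjusted p = 0.00154, adjusted p = 0.0908). Psat1 was lower by -0.46 ± 0.18 (adjusted p = 0.217).

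Without wild type 2 and knockout 1, the pattern had the same direction: 23 of 32 members lay below 0 (48.6% of all genes lay above 0), and 8 were lower at an unadjusted p under 0.05, beside 4.73% of all genes. There 7 members were free of overlap, the same 5 with Sdf2l1 and Manf, beside 2.86% of all genes. The log2 fold change was -0.30 ± 0.09 for Hspa5, -0.24 ± 0.08 for Calr, -0.26 ± 0.08 for Pdia4 and 0.24 ± 0.09 for Atf4 (adjusted p = 0.217, 0.298, 0.255 and 0.376). Within the knockout libraries alone (3 earlier, 2 later) Hspa5, Calr, Canx, Pdia3, Pdia4, Pdia6, Manf and Psat1 were lower without overlap in the later mice, 8 members beside 13.1% of all genes. Within the wild-type libraries alone (2 earlier, 3 later) 16 members were lower without overlap, beside 14.7%.

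**Figure D4:**
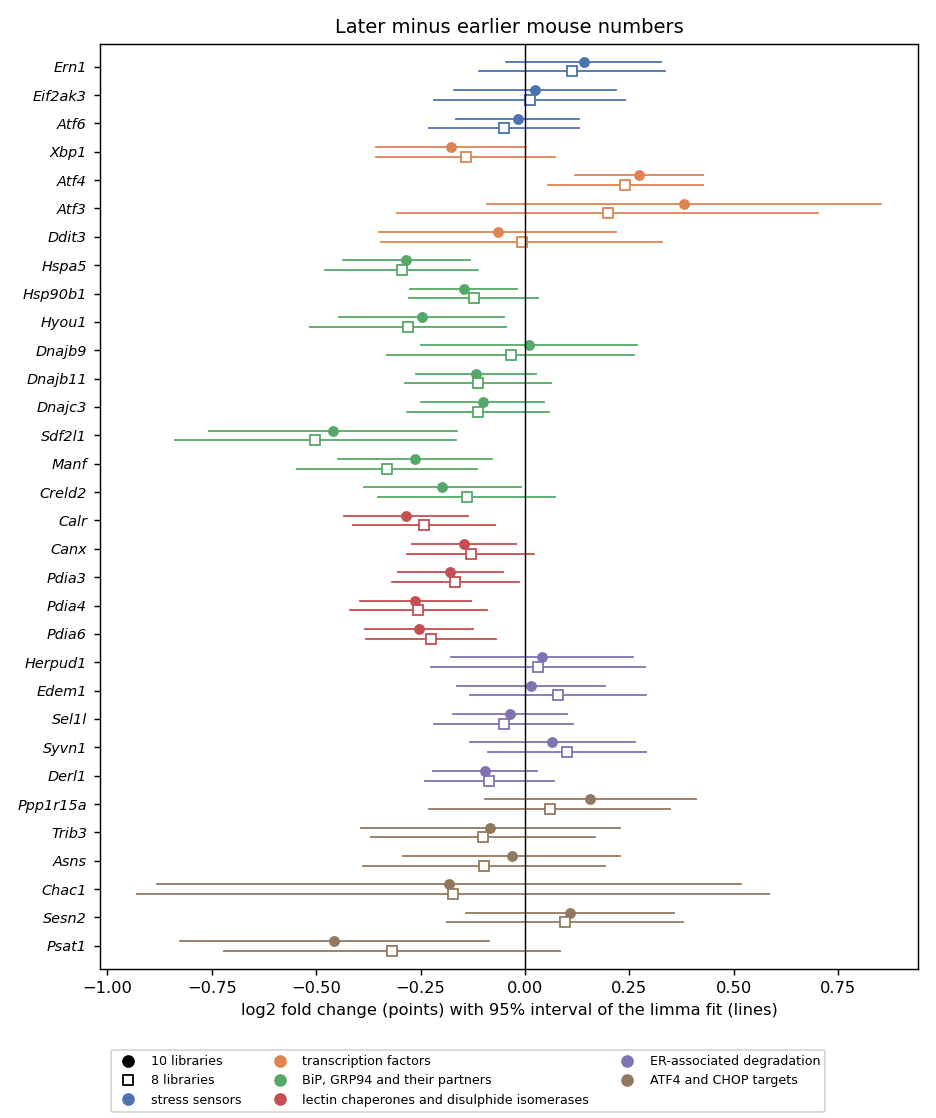
Log2 fold change of each gene, later minus earlier mouse numbers, with genotype as a covariate and the 95% interval of the limma fit, for 10 libraries (filled circles) and for 8 without wild type 2 and knockout 1 (open squares). In 10 libraries the 5 lectin chaperones and isomerases lie between -0.28 and -0.15, and most partners of BiP lie below 0. Atf4 lies at 0.27, and the 5 degradation genes lie between -0.10 and 0.07.

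Other lists moved with the mouse numbers. Of 8 ciliated cell markers 4 passed and were higher in the later libraries (list sum 201.1 to 268 per M against 287 to 358), the most abundant being Tppp3. Of 8 tested macrophage and monocyte markers 4 passed and were lower (Mrc1, Chil3, Ear2 and Itgax, of which Chil3 lay at 12.9 to 22.6 against 0.799 to 2.995 per M). The sum of the 12 macrophage genes, most of it Lyz1, was 1918 to 4292 against 2233 to 3412. Of 18 immediate early genes 3 passed and were higher (Fos, Fosb and Dusp1), with list sums of 955 to 1346 against 1175 to 1456. The part of these genes, and of sex, in the lower folding genes was not tested apart from a fit with sex as a covariate, in which Hspa5, Calr, Pdia4 and Pdia6 lay between -0.36 and -0.29 (adjusted p = 0.118 to 0.189). All females carry earlier numbers, so the run difference in that fit rests on wild type 3 and knockout 1 as the only earlier males. Wild type 3 was the highest library for Hspa5 (742 per M), and the Rbck1 level of knockout 1 goes against its label. That fit therefore cannot separate sex from these libraries. Plasma cells are also rich in ER chaperones, and of the 9 plasma and B cell markers in the table Sdc1 alone was abundant, at 916 to 1106 per M, with Igkc, Jchain, Mzb1 and Ighm at 20.5 per M or below in every library. The passing genes of these lists are named after their values were seen.

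**Figure D5:**
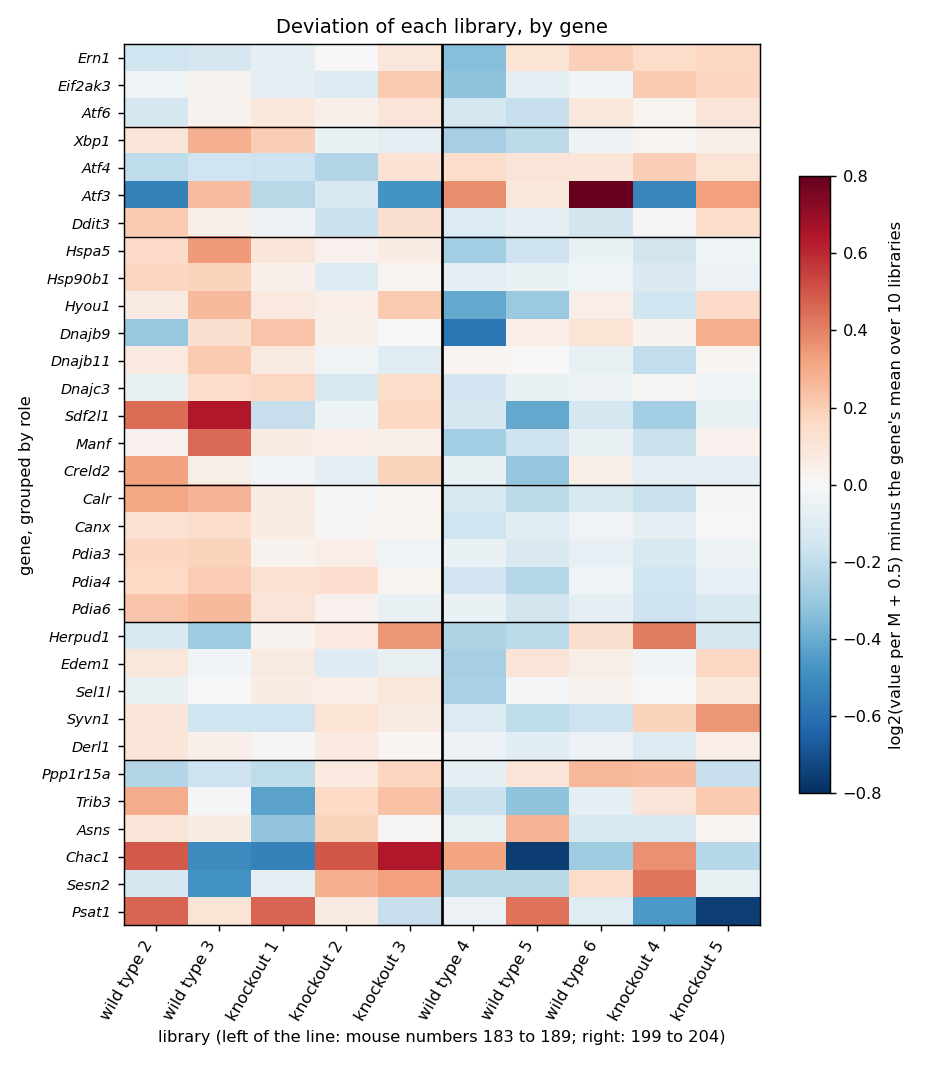
Deviation of each library (columns, earlier numbers left of the line) from the gene's mean over 10 libraries on the log2(value per M + 0.5) scale, genes in rows grouped by role. Of the 14 folding genes, 12 are positive in wild type 2, 14 in wild type 3, and 12, 8 and 10 in knockout 1, 2 and 3. In each of the 5 later libraries 1 to 4 are positive. Herpud1 and Sesn2 share their highest library, knockout 4.

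The folding genes also varied together from mouse to mouse. With the genotype means removed, Pearson's r over 10 libraries had a median of 0.93 over the 10 pairs of lectin chaperones and isomerases (0.87 to 0.97) and of 0.75 over the 91 pairs of the 14 folding genes (-0.27 to 0.98), against 0.19 over all 496 pairs of members. Hspa5 was closest to Canx (r = 0.98) and Manf (r = 0.95), and r with Xbp1 was 0.87. Atf4 ran against them, with r = -0.89 for Pdia6, -0.88 for Pdia4 and -0.87 for Pdia3. When the means of the runs were removed as well, the median was 0.75 for the lectin chaperones and isomerases and 0.52 for the folding genes, and Atf4 with Pdia6 came to -0.55. These values describe 10 libraries that share their scaling and their depth.

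A smaller set, named after its values were seen, followed another order. In 10 libraries the median r was 0.07 over all pairs of ATF4 and CHOP targets and 0.12 over all pairs of degradation genes. Sesn2, Herpud1 and Ppp1r15a varied together (r = 0.89 for Sesn2 with Herpud1, 0.84 for Sesn2 with Ppp1r15a and 0.80 for Herpud1 with Ppp1r15a), and the values were 0.90, 0.83 and 0.83 with the run means removed. Knockout 4 was the highest library for Sesn2 and Herpud1, and wild type 6 the highest wild-type library for all 3. The sum of the immediate early genes was also highest in these 2 libraries (1456 in wild type 6 and 1440.1 in knockout 4), and its part in the 3 genes was not tested. Syvn1 and Trib3 had r = 0.82 in 10 libraries but 0.11 in 8, so that this value rests on wild type 2 and knockout 1. The r of Atf4 with the 6 ATF4 and CHOP targets in 10 libraries was of either sign, 0.56 for Ppp1r15a, 0.37 for Sesn2, 0.01 for Chac1, -0.06 for Trib3, -0.14 for Asns and -0.67 for Psat1.

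The promoters of these genes were searched for the letters of known response elements, in the 300 bases from 250 before to 50 after the start site (RefSeq, build GRCm38.p6). A promoter was found for 28 of the 32 members. The ER stress response element (ERSE), at which NF-Y and ATF6 bind, was written as CCAAT, any 9 bases and CCACG, and searched on both strands. It was present in 8 of 28 members (28.6%), and in 37 of 27025 gene symbols with a promoter (0.137%). The 8 are Hspa5, Hsp90b1, Dnajc3, Creld2, Calr, Canx, Pdia6 and Syvn1, and Hsp90b1 has 2 copies, 1 in each orientation. The shorter ERSE-II, written as ATTGG, any base and CCACG, was in Herpud1 and Dnajb11 (7.14% of members, 0.0444% of symbols), and the core of the ATF4 element, TGATGCAA, in Atf3, Herpud1 and Chac1 (10.7% and 1.03%). The XBP1-binding core TGACGTGG was in 0 of 28 members and in 0.714% of symbols.

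The elements of the 7 folding genes are shown with 20 bases on each side, a choice made after the values were seen. Of the 7, 6 were lower at an unadjusted p under 0.05 in the later mice. Folding genes with a promoter but no ERSE were lower at such a p too: Pdia3 (-0.18), Pdia4 (-0.26) and Sdf2l1 (-0.46). Dnajb11 (-0.12) and Dnajb9 (0.01), also without an ERSE, were not. Capitals mark the element, and the strand is that of the gene.
Hspa5, chr2:34772005-34772063, plus strand: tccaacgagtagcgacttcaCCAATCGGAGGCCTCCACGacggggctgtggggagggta
Hsp90b1, upstream copy, chr10:86705618-86705676, minus strand: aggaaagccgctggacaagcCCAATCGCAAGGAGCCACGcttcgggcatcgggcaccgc
Hsp90b1, downstream copy, chr10:86705513-86705571, minus strand: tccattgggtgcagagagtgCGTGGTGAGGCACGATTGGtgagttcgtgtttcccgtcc
Dnajc3, chr14:118937807-118937865, plus strand: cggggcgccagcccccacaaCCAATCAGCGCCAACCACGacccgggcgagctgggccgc
Creld2, chr15:88819500-88819558, plus strand: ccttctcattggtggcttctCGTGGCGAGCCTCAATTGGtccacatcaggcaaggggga
Calr, chr8:84847055-84847113, minus strand: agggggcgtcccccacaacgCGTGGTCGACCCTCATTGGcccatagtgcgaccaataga
Canx, chr11:50325780-50325838, minus strand: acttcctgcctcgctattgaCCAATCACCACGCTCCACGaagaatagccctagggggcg
Pdia6, chr12:17266471-17266529, plus strand: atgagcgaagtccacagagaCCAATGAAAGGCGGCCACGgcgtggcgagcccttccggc
In Hsp90b1 (downstream copy), Creld2 and Calr the element reads in the opposite direction to the gene. The first base of the element lies between 212 and 44 bases before the start site over the 9 copies, Syvn1 included.

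Syvn1 and Herpud1 are the degradation genes with the largest genotype values, and the 250 bases before the start site are shown for both, with matches in capitals.
Syvn1, chr19:6046326-6046575, plus strand: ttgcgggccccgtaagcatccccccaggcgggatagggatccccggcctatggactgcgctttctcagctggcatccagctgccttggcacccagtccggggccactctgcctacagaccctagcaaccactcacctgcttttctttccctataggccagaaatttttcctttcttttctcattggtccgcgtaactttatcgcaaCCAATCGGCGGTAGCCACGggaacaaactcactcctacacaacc
Herpud1, chr8:94386179-94386428, plus strand: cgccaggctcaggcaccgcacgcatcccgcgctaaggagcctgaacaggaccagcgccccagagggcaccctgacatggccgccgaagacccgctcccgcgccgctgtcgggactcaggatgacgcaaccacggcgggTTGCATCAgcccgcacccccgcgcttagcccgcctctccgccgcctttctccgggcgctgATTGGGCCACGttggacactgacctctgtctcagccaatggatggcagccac
Syvn1 holds an ERSE close to the start site, and Herpud1 holds an ATF4 core on the opposite strand followed by an ERSE-II. A match of letters is a description of the sequence and does not show that a factor was bound in these cells.

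The members with an ERSE were read side by side with those without. All of the 8 but Syvn1 are folding genes, whereas the members without an ERSE include the other roles, so the sets also differ in role. Between the mouse numbers, 7 of the 8 lay below 0 with a median log2 fold change of -0.17. Of the 8, 6 were lower at an unadjusted p under 0.05, beside 7.55% of all genes. Syvn1 was the exception above 0. Of the 20 members with a promoter but no ERSE, 11 lay below 0, with a median of -0.03, and 4 were lower at such a p. The 29 other gene symbols with an ERSE had 9 genes that passed the filter. Of these, 6 lay below 0, with a median of -0.15, and 2 were lower at such a p. Between the genotypes, 4 of the 8 lay above 0 in the 10 libraries (median -0.01) and 6 of 8 in the 8 libraries (median 0.02). Of the 20 without an ERSE, 14 lay above 0 in the 10 libraries (median 0.04) and 13 in the 8 (median 0.04).

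The wider machinery outside the 32 genes gave no gene past the threshold between the genotypes. In the 10 libraries, of 34 further genes of ER folding, translocation and glycosylation 22 lay below 0 (median -0.03), and the smallest p was that of the signal peptidase subunit Spcs1 (-0.23 ± 0.08, adjusted p = 0.369). Of 33 tested further ATF4-branch targets 22 lay below 0 (median -0.04), and Cth, an enzyme of cysteine synthesis, was nearest to passing (0.32 ± 0.09, adjusted p = 0.314). At an unadjusted p under 0.05, 2 of the list were higher and 1 lower, beside 6.2% and 3.28% of all genes. Of the 14 eIF2 kinases, eIF2 and eIF2B genes, 6 lay above 0 and 8 below. In the 8 libraries the amino acid transporter Slc7a5 led the ATF4 targets (0.46 ± 0.12, adjusted p = 0.112). Of the 33, 4 were higher at an unadjusted p under 0.05, beside 7.84% of all genes, while 13 lay above 0 and 20 below. Junb led the 18 immediate early genes there (0.56 ± 0.12, adjusted p = 0.0515), with 5 higher and 1 lower at such a p, beside 7.84% and 5.25% of all genes. The ciliated cell markers were lower in knockout in the 8 libraries, 6 of 8 at an unadjusted p under 0.05, beside 5.25% of all genes. Lyz1 of the macrophage list and Msln of the mesenchymal list passed and were higher (0.46 ± 0.10 and 1.53 ± 0.30, adjusted p = 0.0488 and 0.0327). The plasma cell genes Igkc (1.22 ± 0.48) and Jchain (1.13 ± 0.42) were higher at an unadjusted p under 0.05 (adjusted p = 0.292 and 0.270), though wild type 2, outside these 8, had the highest level of both. These 4 genes are named after their values were seen. The part of these markers in the values of the members was not tested.

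Between the mouse numbers, the further genes of folding, translocation and glycosylation lay on the same side as the members. Below 0 were 29 of 34, with a median of -0.08, and 9 were lower at an unadjusted p under 0.05, beside 7.55% of all genes. None passed the threshold. Of 20 further degradation genes 15 lay below 0 (median -0.05) with 1 lower at such a p, and of 18 cytosolic heat shock genes 14 lay below 0 (median -0.13) with 3.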

How the data were processed

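RNA-seq libraries of sorted AT2 cells from 10 mice were compared, 5 per genotype, grouped by their titles. RNA was isolated with RNeasy Plus and libraries were made with NEBNext Ultra for the NextSeq 500, per the labels' protocols. Per the submitters' processing notes the tools include bcl2fastq 2.17 and edgeR 3.14.0, and the build is mm10. The aligner, annotation, strand setting and normalization method: not given in the sources used here. What the authors deposited is a table of normalized counts for 16154 genes, a signal that is not whole, in which 10 columns match the sample titles and 16026 Ensembl IDs have a symbol.

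In the low values, between 25.1% and 83.9% by library were whole multiples of a step (tolerance 0.1). Whole reads could therefore not be had, and no test for counts was used. Values were scaled by the average column sum (7.14 M). The test was limma-trend (limma 3.58.1, R 4.3.3) on log2(value + 0.5), two-sided, with Benjamini-Hochberg adjustment over 12946 genes. Such fold changes understate the change of low genes. Errors are SEs of the fit unless marked SD, and p-values measure the spread between these mice only. The fits were tested on simulated data. Alternatives were other scalings (TMM, equal totals, median ratios), pseudocounts, filters, covariates, array weights, a replicate block and leaving out each library.

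The 32 genes, their roles, the other gene lists and the split by mouse number were chosen with earlier results of these data known. All 32 genes may be named. Values per library are given, in each role, for the 2 genes with the smallest p in either genotype comparison and for the gene with the highest level. Hyou1, Pdia3 and Pdia6 also meet this rule, but their values are not given for every library. Between mouse numbers, values are given for genes with an unadjusted p under 0.05, a choice made after the values were seen. Each other list names up to 2 genes with the smallest p in either genotype comparison, and each marker list its most abundant gene. Exon lengths are from GENCODE M21 and promoters from RefSeq (GRCm38.p6). For 25 of the 28 promoters the last 20 bases were found in a transcript of the gene. Protein sequences were not analysed here. Python 3.11.15 was used with numpy 2.4.6, pandas 2.3.3 and, for the plots, matplotlib 3.10.9.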

Additional observations from a re-analysis of the deposited data

Results flagged for a closer look

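For each of the 32 genes and each genotype, the highest and the lowest of the 5 libraries were set against the other 4 by Dixon's criterion (the gap to the nearest library over the whole range, against the 95% critical value), which chance meets in about 1 of 20 groups. Of 64 groups, 3 met it. Manf was low in knockout 4, at 82.5 per M against 96.1 to 97.4 in the other knockout libraries. Creld2 was high in knockout 3, at 54.2 against 45.0 to 47.0. Trib3 was low in knockout 1, at 8.76 against 12.9 to 14.2, and knockout 1 is a library whose Rbck1 level goes against its label.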

How the results depend on the processing

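Knockout against wild type in 10 libraries gave 0 genes past the threshold, but 261 with the replicate block, 1 with the run of mouse numbers as a covariate, 52 without wild type 2 and knockout 1, 41 in the later mice alone, and 0 to 4 when each library was left out in turn (4 without knockout 1). Of the members 0 passed, and 1 with the replicate block (Sesn2, 0.51, limma adjusted p = 0.0354). Their median in the earlier mice alone was -0.10. In 8 libraries the 52 genes became 4 with no filter, 397 with the replicate block, 27 with sex as a covariate and 19 to 100 over the left-out libraries (leaving out wild type 4, 5 or 6 gave 26, 19 and 100, and leaving out knockout 3 or 4 gave 32 and 84). Members past the threshold went from 0 to 2 with the block (Herpud1, 0.45, and Sesn2, 0.54; limma adjusted p = 0.0340 and 0.0313) and to 0 to 1 over the left-out libraries (Sesn2 without wild type 6, 0.55, limma adjusted p = 0.0455), and their median lay between -0.0037 and 0.12. Between mouse numbers the 81 genes became 44 with sex as a covariate, 28 in 8 libraries and 18 to 139 over the left-out libraries (leaving out wild type 2, 3, 5 or 6 gave 18, 44, 23 and 28, and leaving out knockout 1 or 4 gave 139 and 43). There 0 to 1 members passed: Atf4 without knockout 3 (0.32, limma adjusted p = 0.0408) and Calr without knockout 5 (-0.35, limma adjusted p = 0.0370). The replicate block compares same-numbered libraries only, numbers 2 to 5 in the 10 libraries and 3 to 5 in the 8. Each such pair lies within 1 run. Libraries without a partner, among them knockout 1 and wild type 6, do not bear on its genotype values, so these rest on fewer libraries. The cause of the shifts listed here was not tested.

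The replicate numbers did not pair the libraries. The correlation of same-numbered deviations was 0.31, 0.03, 0.10 and 0.08 for numbers 2 to 5, and wild type 3 and wild type 5 correlated better with another number. No paired analysis was possible for the difference between mouse numbers, because each number lies within 1 run.

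Genotype values near 0 changed sign. In 10 libraries Hspa5 (0.00) was -0.0069 with TMM, -0.0049 with median ratios, -0.037 with the replicate block, -0.056 with the run and -0.024 with sex as a covariate, -0.013 with array weights and -0.19 in the earlier mice alone. Pdia4 (0.02) was -0.012 with the block, -0.033 with the run, -0.011 with sex and -0.089 in the earlier mice, where Xbp1 was -0.17, Ddit3 -0.15, Hyou1 -0.048 and Trib3 -0.15. Over the left-out libraries Hspa5 ran from -0.069 to 0.085, Pdia4 from -0.035 to 0.073, Xbp1 from -0.0053 to 0.13 and Ddit3 from -0.0028 to 0.087. In 8 libraries Pdia3 (-0.02) was 0.015 with equal totals. Hspa5 (0.02) was -0.0079 with the block, -0.058 with the run and -0.053 with sex, and Pdia4 (0.03) was -0.0079, -0.030 and -0.062. Over the left-out libraries Hspa5 ran from -0.063 to 0.14, Pdia4 from -0.025 to 0.12, Pdia3 from -0.059 to 0.043, Pdia6 from -0.12 to 0.015, Xbp1 from -0.026 to 0.16 and Dnajb9 from -0.0072 to 0.23. Of 1136 alternative values, 1054 kept their direction and side of the threshold (counts within 1.5 times), 48 changed sign, 28 moved and 6 came to pass. Among the 1054, leaving out a library moved a fold change by over 1.5 times 69 times. In 10 libraries these include Dnajb9 (0.24 to 0.12), Ern1 (0.13 to 0.063), Eif2ak3 (0.17 to 0.11) and Hyou1 (0.13 to 0.046) without wild type 4, Atf3 (-0.40 to -0.24) without wild type 6, Psat1 (-0.35 to -0.20) without knockout 5 and Trib3 (0.11 to 0.23) without knockout 1. Between mouse numbers they include Manf (-0.26 to -0.15) without wild type 3 and Creld2 (-0.20 to -0.12) without wild type 2. The depth of each library is known roughly at best, and Chac1, Psat1 and Atf3 rest on few reads.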
